A study of Mus musculus with 12 samples.

Results

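The genes described here are Dppa2, Dppa3, Dppa4, Dppa5a, Gdf3 and Tcl1, transcripts that mark the undifferentiated embryonic stem cell, the early embryo and the germline. They were chosen by name, and all probe sets of the array whose single annotated gene symbol was one of the 6 were taken. This gave 8 of 34945 named probe sets, which stand for 6 of 18193 genes. Dppa2 and Gdf3 had 2 probe sets each and the other members 1 each. A probe set is a group of short probes on the array that together read 1 transcript.

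The samples were wild-type TBV2 cells, an embryonic stem cell line from 129/SvP mice. All cultures were plated sparsely on gelatin in place of feeder cells and grew, with no non-essential amino acids added, in medium with leukemia inhibitory factor (LIF), the cytokine that holds such cells in the pluripotent state. For 5 days the medium held either no addition (control) or 500 µM L-proline. Each group has 6 arrays, from 2 biological replicates with 3 arrays each. The arrays of one replicate are treated as repeats of it, so each comparison rests on 2 control and 2 proline values, and no label says how the replicates were kept apart. The p-values of the fitted fold changes weigh the spread between the replicates within each group together with a spread estimated from all genes. Some of the spread between replicates may be technical.

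Dppa2 and Dppa4 are chromatin proteins with a SAP domain that bind each other and sit at CpG-rich developmental promoters, and in mouse stem cells they are needed for the genes of the 2-cell embryo. Dppa3, also called Stella or PGC7, is a maternal factor that protects the egg-derived genome from demethylation and restrains the methylation cofactor UHRF1. It is known for being switched on in only a part of the cells of a stem cell culture. Dppa5a, also called Esg1, is an RNA-binding protein of the KH-domain type. Gdf3 is a ligand of the TGF-beta family that acts through the Nodal co-receptor Cripto, and Tcl1 binds AKT kinases and enhances their activity.

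Of the 6 members, Tcl1 fell 2.42-fold after proline and was the only one past the threshold of an adjusted p of 0.05. Dppa2, Dppa4, Dppa5a and Gdf3 measured lower without passing, from 2.07-fold in Dppa2 to 1.17-fold in Gdf3, and Dppa3 measured 2.37-fold higher without passing. Thus 1 of 6 members was called lower and 0 higher, against 1.34% and 3.03% of all genes (4.36% in either direction). At an unadjusted p under 0.05 there were 3 members (Tcl1, Dppa2 and Dppa5a), against 22.1% of all genes. Of the 6, 5 had a log2 fold change below 0, against 56.1% of all genes. The median log2 fold change was -0.38 over the members and -0.03 over all genes. These calls come from limma on log2 signals with Benjamini-Hochberg adjustment over all genes. In bulk RNA, a change in the number of cells with a transcript and a change in its amount per cell cannot be told apart.

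**Figure D1:**
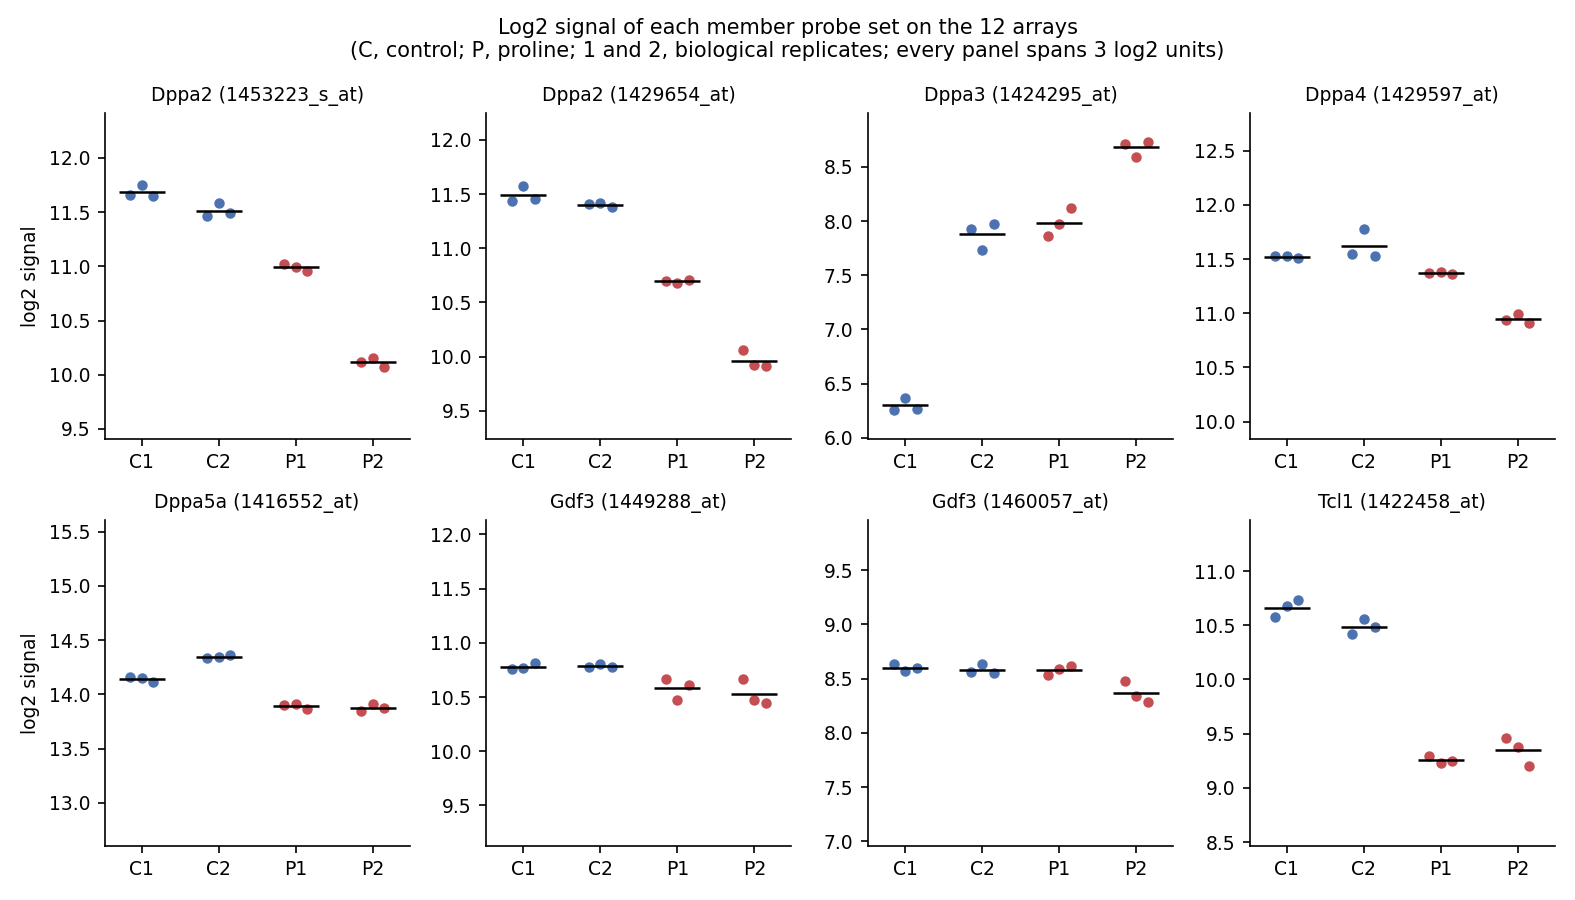
Log2 signal (vertical axis) of the 8 member probe sets on the 12 arrays, with 3 points for each biological replicate (C1 and C2 control in blue, P1 and P2 proline in red) and a black line at the replicate mean. Tcl1 is low on all 6 proline arrays, both Dppa2 probe sets are lower in P2 than in P1, and control replicate 1 of Dppa3 stands far below the other 9 arrays.

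Separation of the arrays was more common than a call. For Dppa2, Dppa4, Dppa5a, Gdf3 and Tcl1, 5 of 6 members, all 6 proline arrays lay below all 6 control arrays, as they did in 10.8% of all genes. The Dppa3 arrays overlapped. The 3 arrays of a replicate were close to each other, the widest range within a replicate being 0.26 log2 units over the 8 probe sets. The separation of arrays therefore reflects 2 replicates per group, for which the smallest two-sided p of an exact permutation test is 0.333.

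Tcl1, the AKT-binding member, had log2 signals of 10.42 to 10.73 on control arrays (median 10.57) and of 9.20 to 9.46 on proline arrays (median 9.27). Both proline replicates were low to the same degree, and the groups stood 0.96 log2 units apart at their nearest arrays. The replicate means were 10.66 and 10.49 in controls and 9.26 and 9.35 after proline. The log2 fold change was -1.27 ± 0.13 (moderated SE, n = 2 replicates per group), with a 95% interval from -1.61 to -0.94 and a limma adjusted p of 0.0288. That left 41.4% of the control signal. Among all genes, 4.17% had a larger change in size.

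The call on Tcl1 depends on the fit more than its size does. The limma adjusted p was 0.0513 when every probe set was tested by itself, and Tcl1 passed in 11 of the 16 alternatives run. The log2 fold change was -1.18 without control replicate 1 and -1.36 without control replicate 2. It was -1.23 without proline replicate 1 and -1.32 without proline replicate 2. In these 4 fits 1 group is a single sample assumed to vary like the other group.

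Tcl1 is the 1 member whose promoter sequence is in the RefSeq table used here, and it is shown because it belongs to the called member. The 250 bases before the annotated start lie at chr12:105222738-105222987 on the minus strand of GRCm38.p6, and capitals mark CG dinucleotides, the sites of DNA methylation:

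Tcl1 upstream: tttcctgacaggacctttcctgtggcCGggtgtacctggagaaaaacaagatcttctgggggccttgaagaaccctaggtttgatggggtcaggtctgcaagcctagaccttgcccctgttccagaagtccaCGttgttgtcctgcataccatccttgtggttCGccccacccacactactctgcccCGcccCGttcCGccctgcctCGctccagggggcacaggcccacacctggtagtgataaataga

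The stretch holds 7 CG dinucleotides and is 57.6% G or C, and 46.5% of 27025 promoters of the same length hold at least as many. It was searched on both strands for the octamer ATGCAAAT, the SOX motif CATTGT, the ESRRB motif CAAGGTCA, the E-box CACGTG and the KLF motif GGGTGTG, none of which contains another. There were 0 matches to each. Of the same promoters, 1.61% held the octamer, 11.0% the SOX motif, 1.31% the ESRRB motif, 6.05% the E-box and 6.85% the KLF motif. These letters are not in this window, which says nothing about binding by the factors, and no methylation was measured here.

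Dppa2, of the SAP-domain pair, was read by a pair of probe sets. On probe set 1453223_s_at, which had the higher mean and stands for the gene, control arrays lay between 11.46 and 11.75 (median 11.62) and proline arrays between 10.07 and 11.02 (median 10.56). The proline replicates differed, with means of 10.99 and 10.11, while the control means were 11.69 and 11.51. The gap between the proline replicates, 0.88 log2 units, was exceeded by 2.78% of all genes. The log2 fold change was -1.05 ± 0.31, or 2.07-fold lower (95% interval 1.16 to 3.67), with a limma adjusted p of 0.154.

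The other Dppa2 probe set gave the same picture. On 1429654_at control arrays lay between 11.38 and 11.58 and proline arrays between 9.91 and 10.71, with proline replicate means of 10.69 and 9.96. Its log2 fold change was -1.12 ± 0.27 (limma adjusted p = 0.142 over all named probe sets). The annotation derives both probe sets from the same transcript record, so they are repeat readings of 1 RNA. Without proline replicate 2 the gene's log2 fold change was -0.61, and without proline replicate 1 it was -1.48.

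Dppa4, the partner of Dppa2, measured a smaller difference with the same order of replicates. Control arrays read 11.51 to 11.78 (median 11.53) and proline arrays 10.91 to 11.38 (median 11.18). The replicate means were 11.52 and 11.62 in controls and 11.37 and 10.95 after proline, so that proline replicate 1 lay close under the controls. The log2 fold change was -0.41 ± 0.18 (limma adjusted p = 0.289), with a 95% interval from -0.89 to 0.07. It was -0.19 without proline replicate 2 and -0.62 without proline replicate 1.

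Dppa2 and Dppa4 had the highest correlation of any member pair, r = 0.950 over the 12 arrays, which share their 4 cultures and are not independent. Their measured shifts were -1.05 and -0.41. Dppa2 minus Dppa4, taken within each replicate and set to 0 at the control mean, was 0.14 and -0.14 in controls and -0.41 and -0.86 after proline, a change of -0.64 (-0.86 without proline replicate 1 and -0.41 without proline replicate 2). The groups did not overlap, and the exact two-sided permutation p was 0.333, the smallest that 4 values allow. A shift of a whole array by a constant cancels in such a difference; other scalings were not run for it.

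Dppa3 was the member measured higher after proline, and its controls disagreed. Control arrays ran from 6.26 to 7.97 (median 7.05) and proline arrays from 7.86 to 8.73 (median 8.36). The control replicate means were 6.30 and 7.88, and the proline means were 7.98 and 8.68. Control replicate 2 thus lay within 0.11 log2 units of proline replicate 1, while control replicate 1 lay far below every other sample. The log2 fold change was 1.24 ± 0.58, with a 95% interval from -0.28 to 2.77 and a limma adjusted p of 0.312.

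The 1.58 log2 units between the Dppa3 control replicates exceeded the 1.24 between the groups. Only 0.39% of all genes had a wider gap between the controls, whose median over genes was 0.16. The fold change was 0.45 without control replicate 1, 2.03 without control replicate 2, 1.59 without proline replicate 1 and 0.89 without proline replicate 2. Over the 4 pairs of a proline with a control replicate the difference ran from 0.11 to 2.38, so that all pairs were above 0 but by very different amounts.

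**Figure D2:**
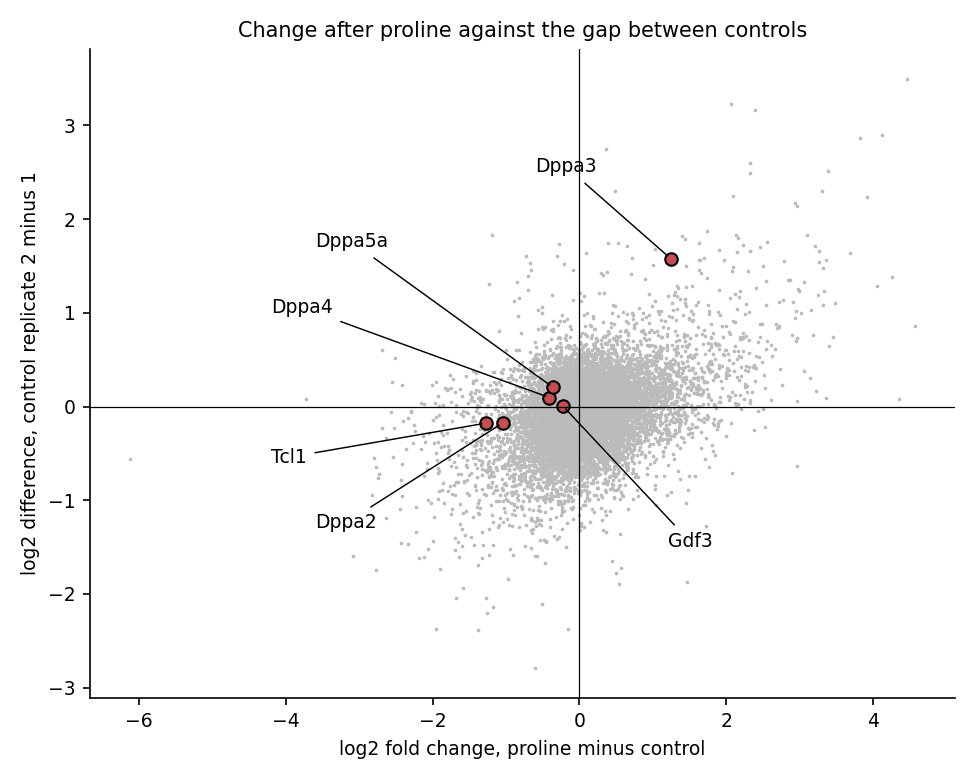
Each grey point is 1 of 18193 genes, with the log2 fold change of proline minus control on the horizontal axis and the log2 difference of control replicate 2 minus control replicate 1 on the vertical axis; the 6 members are in red. Dppa3 sits at 1.24 and 1.58, apart from the other members, whose control gaps lie between -0.18 and 0.20.

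Dppa5a, the KH-domain RNA-binding protein, measured slightly lower with a narrow spread after proline. Control arrays read 14.12 to 14.36 (median 14.25) and proline arrays 13.85 to 13.92 (median 13.89). The control replicates averaged 14.14 and 14.35, and the proline replicates 13.89 and 13.88, so the proline samples were nearly equal. The log2 fold change was -0.36 ± 0.13, or 78.0% of the control signal (limma unadjusted p = 0.0416, adjusted p = 0.205). The probe set lay at the 99.8th percentile of all probe sets by mean signal, where the highest value on any array was 14.8, and whether the scale is compressed there was not tested.

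Gdf3, the secreted ligand, had the smallest difference. On probe set 1449288_at control arrays read 10.76 to 10.81 (median 10.78) and proline arrays 10.44 to 10.67 (median 10.54). All proline arrays were below the controls by at least 0.09 log2 units. The log2 fold change was -0.23 ± 0.11 (limma adjusted p = 0.329), with a 95% interval from -0.52 to 0.06. The other probe set, 1460057_at, had a lower signal and overlapping groups, with control arrays between 8.55 and 8.64 and proline arrays between 8.28 and 8.62. Its log2 fold change was -0.12 ± 0.13 (limma adjusted p = 0.729 over all named probe sets).

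**Figure D3:**
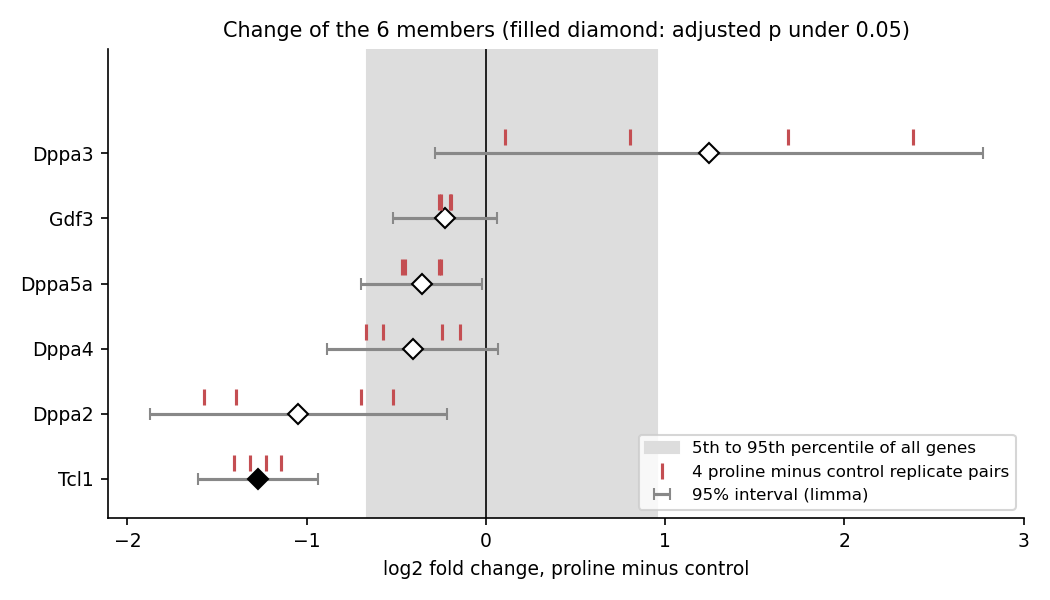
Log2 fold change of each member (diamond, filled where the adjusted p was under 0.05), its 95% interval from limma (grey bar) and the 4 differences between a proline and a control replicate (red ticks); the shaded band spans the 5th to the 95th percentile of all genes, -0.66 to 0.96. Tcl1 and Dppa2 lie below the band and Dppa3 above it, with the ticks close together in Tcl1 and far apart in Dppa3 and Dppa2.

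Members in other pairs also separated within the arrays. Dppa5a minus Tcl1 changed by 0.91 between the groups, Dppa3 minus Gdf3 by 1.47 and Dppa3 minus Dppa5a by 1.60. In these pairs too the proline values lay outside the range of the controls. With 4 pairs compared, each had an exact two-sided permutation p of 0.333 (0.333 after adjustment), so none can pass a threshold in this design. The control values of both Dppa3 pairs were spread by SDs of 1.11 and 0.97.

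The chromosomal neighbours of the members went in different directions. Dppa4 and Dppa2 lie next to each other on mouse chromosome 16, and the measured gene on the other side of Dppa2 is Morc1, a germline chromatin ATPase needed for transposon silencing. Morc1 fell, with a log2 fold change of -1.95 ± 0.16, from 10.80 ± 0.19 to 8.85 ± 0.16 (SD, n = 2; limma adjusted p = 0.0246), against -1.05 in Dppa2 and -0.41 in Dppa4, a difference that was not tested. Nectin3, on the other side of Dppa4, measured 0.33 ± 0.23 (adjusted p = 0.496).

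On chromosome 6 the order is Apobec1, Gdf3, Dppa3, Nanog and Slc2a3 among measured genes. Dppa3 measured higher between neighbours that measured lower, Gdf3 and the pluripotency factor Nanog (-0.54 ± 0.19, limma adjusted p = 0.201). The glucose transporter gene Slc2a3 measured 0.07 ± 0.15 (adjusted p = 0.858). Foxj2, a forkhead factor one gene further along, rose by 0.79 ± 0.11 (adjusted p = 0.0426), with 0.31 on its other probe set.

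Dppa5a on chromosome 9 has Ooep as a measured neighbour, a KH-domain gene of the maternal complex of the egg. Ooep fell by 1.34 ± 0.13, from 11.40 ± 0.03 to 10.06 ± 0.16 (limma adjusted p = 0.0288). The next gene, the RNA helicase Ddx43, measured -1.36 ± 0.51 (adjusted p = 0.221). Beside Tcl1 on chromosome 12 lie its paralogs Tcl1b1, Tcl1b3 and Tcl1b4. They measured -0.12 ± 0.13, -0.22 ± 0.11 and 0.01 ± 0.11, and none passed. On the other side the nearest measured gene, D430019H16Rik, measured 0.98 ± 0.23 (limma adjusted p = 0.101), with all 6 proline arrays above the controls. Of 24 measured neighbours, 1 rose, 2 fell and 21 did not pass, with a median log2 fold change of -0.09. Of all genes, 3.03% were called higher and 1.34% lower.

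**Figure D4:**
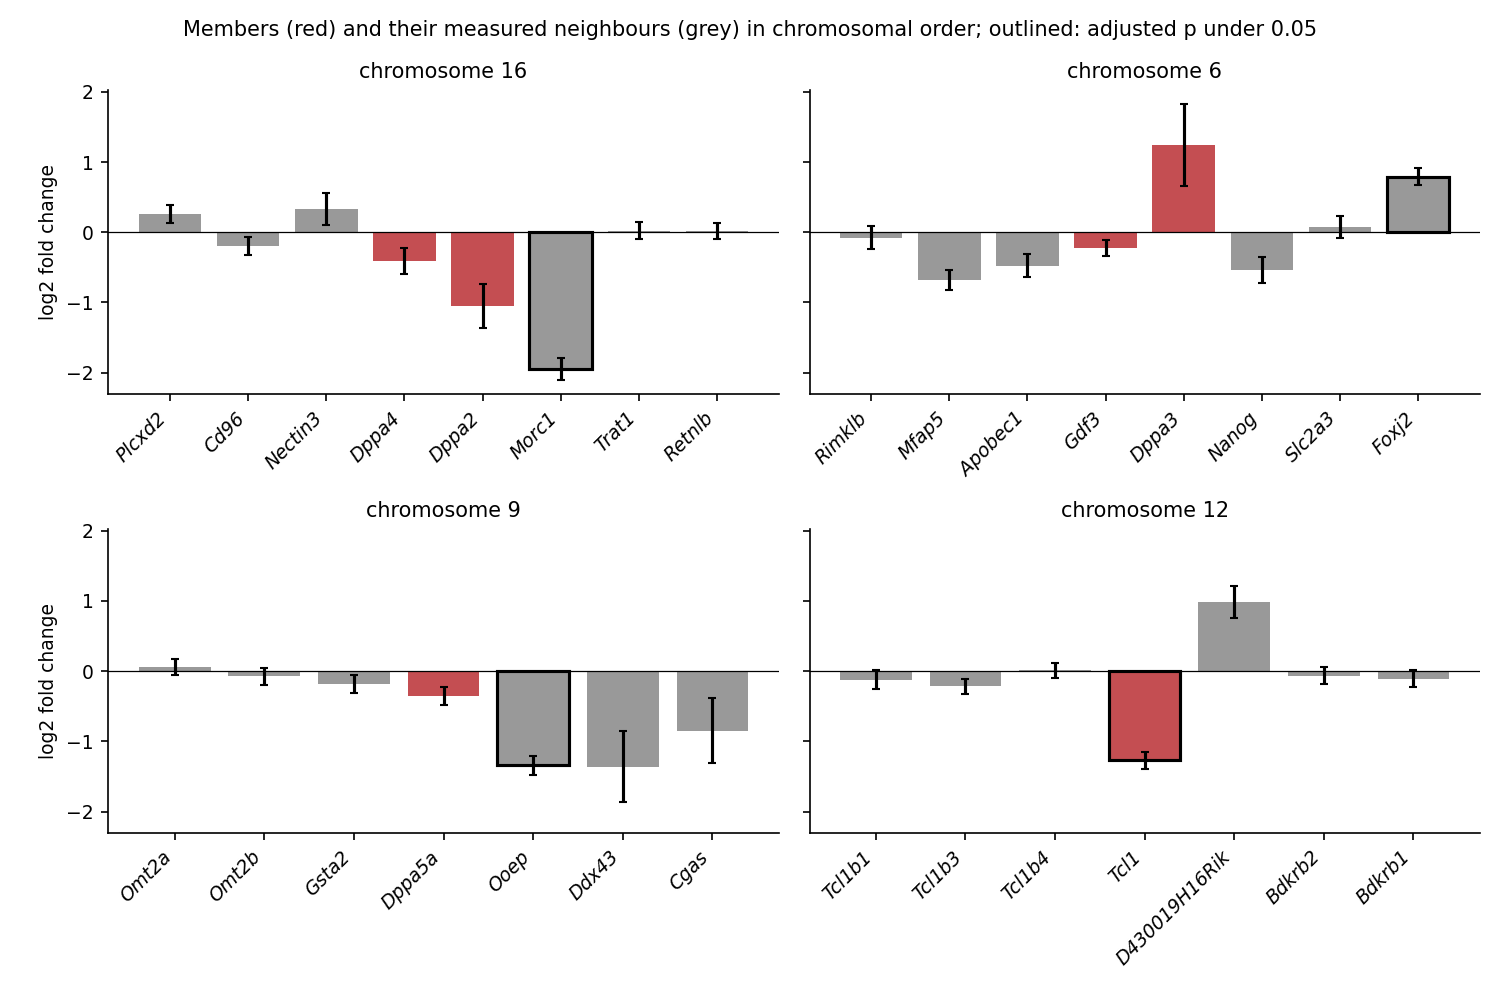
Log2 fold change (bars) with moderated SE (whiskers) of the members in red and of the measured protein-coding genes next to them in grey, in chromosomal order without scale; a black outline marks an adjusted p under 0.05. Tcl1 is the only outlined member, and Morc1, Ooep and Foxj2 are the outlined neighbours.

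Factors listed as regulators of pluripotency were measured lower as a list, and whether they act on the members here was not tested. Of 12 regulators, 4 fell, 0 rose and 8 did not pass, against 1.34% of all genes called lower and 3.03% called higher. All 12 were below 0, against 56.1% of all genes, with a median of -1.21. The nuclear receptor Esrrb (-1.49 ± 0.13, limma adjusted p = 0.0246), Zfp42 (-1.39 ± 0.14, 0.0288), the germ cell regulator Prdm14 (-1.96 ± 0.20, 0.0289) and the T-box factor Tbx3 (-2.64 ± 0.42, 0.0493) fell. The weakest of 5 Tbx3 probe sets gave -0.38, in the same direction. Pou5f1, the gene of Oct4, measured -0.29 ± 0.23 (adjusted p = 0.569) and Sox2 -0.55 ± 0.11 (0.0776).

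Genes that depend on Dppa2 and Dppa4, and genes of the 2-cell embryo, showed no calls. Of 23 listed, 9 were measured, 0 passed in limma, and an unadjusted p under 0.05 was found in 1. Of all genes, 4.36% passed and 22.1% had such an unadjusted p, so few calls were to be had among 9 genes. The Zscan4 genes were not analysed here. Tcstv1, Tcstv3, Duxf3 and Tdpoz1 had means below 5.36, the 40th percentile of probe sets, in both groups. Signal there may not be separable from background, whose level was not estimated. Tdpoz1 measured 0.12 ± 0.13 (limma adjusted p = 0.692). Syce1, a synaptonemal complex gene, measured -1.74 ± 0.47 (limma adjusted p = 0.128), and the piRNA pathway gene Mael 0.36 ± 0.54 (0.784). Both differed between replicates, replicate 2 being lower than replicate 1 by 1.09 and 0.87 in control and proline for Syce1 and by 1.34 and 0.90 for Mael.

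Of 8 genes that set DNA methylation, the process on which Dppa3 acts, 2 fell, 0 rose and 6 did not pass. Of all genes, 1.34% were called lower and 3.03% higher. The demethylases Tet2 (-2.53 ± 0.13, limma adjusted p = 0.0245) and Tet1 (-1.14 ± 0.14, 0.0361, with -0.59 on its weakest probe set) fell. Uhrf1, the partner of Dppa3, measured -0.24 ± 0.15 (adjusted p = 0.450) and the de novo methyltransferase Dnmt3b 1.10 ± 0.27 (0.105). Among 9 measured genes of primordial germ cells, in which Dppa3 is a classical marker, Prdm14 fell and 8 did not pass, with a median of -0.69. Of the 9, 6 were below 0 and 3 above. Tfap2c measured -0.69 ± 0.14 (adjusted p = 0.0731) and Ifitm3 -0.70 ± 0.62 (0.609). Dazl measured -1.21 ± 0.30 (limma adjusted p = 0.112) and Kit -1.26 ± 0.34 (0.125), both with all proline arrays below the controls.

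Gdf3 belongs to the Nodal pathway, of which 16 other genes were measured. Here 3 rose, 0 fell and 13 did not pass, with a median of 0.40. Of all genes, 3.03% were called higher and 1.34% lower. The increases were in Foxh1, the transcription factor of the pathway (1.90 ± 0.14, limma adjusted p = 0.0246), in the feedback inhibitor Lefty2 (1.31 ± 0.19, 0.0441) and in the receptor Acvr2b (0.98 ± 0.15, 0.0441, with 0.48 on its weakest probe set). The ligand Nodal measured 0.27 ± 0.19 (adjusted p = 0.501) and the co-receptor Tdgf1, or Cripto, -0.15 ± 0.16 (0.678).

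Of the AKT pathway, in which Tcl1 acts, 10 genes were measured. In limma 0 passed and 2 had an unadjusted p under 0.05, against 4.36% and 22.1% of all genes, and the median was -0.10. The 2 were Gsk3b (0.46 ± 0.13, adjusted p = 0.142) and Pdpk1 (-0.38 ± 0.13, 0.199). Akt1 measured 0.79 ± 0.30 (0.230) and Akt2 -0.11 ± 0.11 (0.652). Among KH-domain relatives of Dppa5a, 4 were measured and 2 fell, Khdc3 (-3.72 ± 0.13, limma adjusted p = 0.0207) and Ooep. Both Khdc1 genes measured lay under the 40th percentile in both groups. Dppa5a itself differed by -0.36, against -3.72 and -1.34 in its relatives, and the difference between these genes was not tested.

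**Figure D5:**
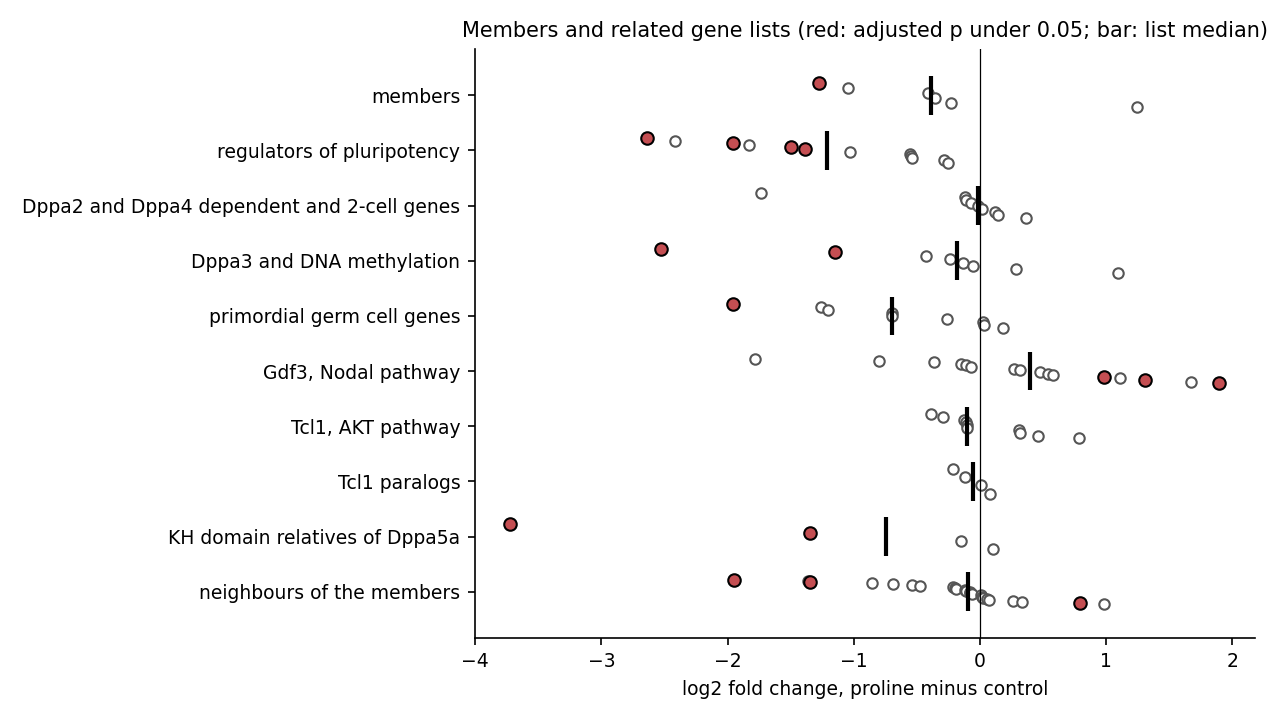
Log2 fold change (horizontal axis) of the 6 members and of the measured genes in 9 related lists, 1 point per gene, red where the adjusted p was under 0.05, with a bar at each list's median. The regulators are all below 0, the Nodal pathway has its 3 called genes above 0, and the members spread from -1.27 in Tcl1 to 1.24 in Dppa3.

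Genes with array profiles most like a member were found by the root mean square difference of profiles centred on their own mean over the 12 arrays. Such genes share the change of the member through the pick itself, so their calls are no separate result. For Tcl1 they were Alpl, the tissue-nonspecific alkaline phosphatase used to stain stem cell colonies (0.09 log2 units, r = 0.994), the lipase inhibitor Angptl4 (0.11, r = 0.988) and the inositol phosphatase Inpp5d (0.11, r = 0.993). All 3 fell, with log2 fold changes of -1.15, -1.33 and -1.42. For Dppa2 they were the methionine sulfoxide reductase Msrb2 (0.07, r = 0.994), Zfp74 (0.10, r = 0.992) and Taf13 (0.11, r = 0.995), and 0 of these passed.

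For Dppa3 the nearest profiles were Apela, which encodes a small secreted peptide of pluripotent cells (0.16, r = 0.986), Dpysl2 (0.19, r = 0.976) and Adamts1 (0.21, r = 0.977). Apela measured 1.45 ± 0.55 (limma adjusted p = 0.229) and, like Dppa3, did not pass. Dppa4 had Tmem131, Tug1 and Adh5 as its nearest (0.04 to 0.07 log2 units), Dppa5a had Zc3h18, Pdpk1 and Pank1 (all 0.05), and Gdf3 had Snrpg, Ptprcap and Orc2 (all 0.05). None of these 9 genes passed. The correlations and calls are descriptions of genes picked for likeness over these same arrays, which share cultures.

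Across probe sets, arrays of the same replicate had correlations from 0.996 to 0.998. Between the replicates of a group they were 0.985 to 0.989, and between groups 0.962 to 0.981. Pluripotency markers read far above the array medians of 5.99 to 6.03 in both groups. The mean log2 signal of 6 such markers was 12.43 and 12.41 in controls and 12.25 and 12.26 after proline. The called regulators Esrrb, Zfp42, Prdm14 and Tbx3 are not among these markers. In limma 0 of these 6 passed and 3 had an unadjusted p under 0.05, against 4.36% and 22.1% of all genes. The smallest p among them was that of Lin28a (0.67 ± 0.11, adjusted p = 0.0530). Lin28a was the 1 marker above 0, and the other 5 were below 0. Means over 8 markers each were 5.39 and 5.53 in controls against 5.70 and 5.81 after proline for extraembryonic endoderm, and 5.77 and 5.40 against 5.37 and 5.89 for fibroblasts, with 0 called in both lists. The smallest p in these lists belonged to Dab2 (1.68 ± 0.28, limma adjusted p = 0.0545) and Gata4 (0.24 ± 0.13, 0.382), and to Dcn (0.77 ± 0.16, 0.0769) and Col3a1 (0.47 ± 0.27, 0.410). The other probe set of Gata4 gave -0.13 and that of Dcn -0.10. It was 0.12 for Col3a1, and the weakest probe set of Dab2 gave 0.42. Trophoblast markers averaged 6.54 and 7.11 against 7.22 and 7.68, with Eomes called higher and 7 not passing. Of these 8 markers, 6 were above 0 and 2 below. Those below were Tfap2c (-0.69 ± 0.14, limma adjusted p = 0.0731) and Ascl2 (-0.59 ± 0.17, 0.141). Krt18 measured 2.39 higher (limma adjusted p = 0.346), with 3.16 log2 units between its control replicates. The 4 replicate means of both the extraembryonic endoderm and the trophoblast list ranked as those of Dppa3 did. Single genes weigh heavily on these means, Krt18 in the trophoblast list and Dab2 (6.76 and 7.43 against 8.56 and 8.99) in the other. Of the 8 endoderm markers, 3 lay under the 40th percentile in both groups. A link of either list to Dppa3 was not tested. Neural markers averaged 6.08 and 6.29 against 6.66 and 6.52, with Nes called higher and Tubb3 lower. Beta-actin signal at the 5' end minus that at the 3' end, which tracks RNA quality, was -0.90 and -0.50 in controls and -0.66 and -0.24 after proline, and 18S ribosomal RNA read 10.74 and 10.04 against 9.74 and 8.35. Poly-A spike-ins read 8.17 ± 0.25 in controls and 7.79 ± 0.33 after proline (SD, n = 2), a difference of -0.39, and hybridization spike-ins 11.50 and 11.37 against 11.31 and 11.06, a difference of -0.24. These spike-in differences are of the size measured in Dppa4 (-0.41), Dppa5a (-0.36) and Gdf3 (-0.23). For 18S ribosomal RNA the difference was -1.35, against -1.27 in Tcl1 and -1.05 in Dppa2. Dppa2, Dppa4, Dppa5a and Gdf3 were lowest, and Dppa3 highest, in proline replicate 2, where 18S ribosomal RNA and both kinds of spike-in were also lowest. The margin to proline replicate 1 was small in Dppa5a (13.88 against 13.89) and Gdf3 (10.53 against 10.58). Tcl1 was lowest in proline replicate 1 (9.26 against 9.35). The part of these measures in the members' differences was not tested.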

How the data were processed

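Total RNA was measured on 12 Affymetrix arrays. Values are log2 signals for 45101 probe sets, deposited by the authors after normalization. MAS5 and RMA are named in the submitters' processing notes, without saying which made the table, and the array medians of 5.99 to 6.03 fit log2 values. Detection calls were not used here.

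Names came from the platform annotation, checked by gene ID against a RefSeq table of GRCm38.p6, which was used for names and gene order and for the 1 printed promoter. Of several probe sets, the one with the highest mean stood for its gene. Arrays of 1 biological replicate were averaged, and the 4 means were fitted by lmFit and eBayes of limma 3.58.1 under R 4.3.3 (two-sided, no covariate, 2 residual and 2.60 prior degrees of freedom), with Benjamini-Hochberg adjustment over 18193 genes. No filter on dim signals was applied. Errors of fold changes are moderated standard errors. The number of replicates limits the precision.

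The members and lists were chosen with earlier results of these data known. Named genes are the members, list genes past the threshold, the 2 of each list with the smallest p, the 3 profiles most like each member, and further list genes as examples. The fit was tested on simulated data. Plots used matplotlib 3.10.9. Alternatives were other normalization, a filter on dim genes, other treatment of probe sets and arrays, a replicate block, an intensity trend, and leaving out replicates or arrays.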

Additional observations from a re-analysis of the deposited data

How the results depend on the processing

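All 6 members kept the sign of their log2 fold change in the 16 alternatives run for each. Median centring, quantile normalization, a filter at the 40th percentile, an intensity trend and leaving out the arrays of one letter kept 1 member past the threshold, and so did the median over probe sets, where the count of all genes went from 794 to 351. With every probe set by itself 187 probe sets (0.535%) and 0 members passed in limma (3 members at an unadjusted p under 0.05). Taking the 12 arrays as independent gave 6804 genes and 6 members, and a random block for the biological replicate 3987 genes and 5 members, all but Gdf3. With the replicate number as a fixed replicate block, 2039 genes and 3 members passed, Tcl1, Dppa2 (adjusted p = 0.0447) and Dppa3 (0.0435). The labels do not say that equal numbers share a culture or day, and across genes the replicate differences of the groups correlated at r = 0.338. Leaving out any one biological replicate left 0 genes and 0 members past the threshold in limma, with 2766 to 3676 genes and 2 to 3 members at an unadjusted p under 0.05. Each such fit has 1 sample in one group. Changes within member pairs, run only with the median over probe sets and without each replicate, kept their direction there. With 2 biological replicates per group, differences as small as those of Gdf3, Dppa5a and Dppa4 could not be separated from 0 after adjustment, and a missed threshold does not show that they stayed the same.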
